A study of Mus musculus with 12 samples.

Results

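The genes Pramel6, Pramel7, Eif4e1b, Zscan4c, Zscan4d, Zscan4f, Tcstv1 and Tcstv3 are 8 of the 46517 genes counted in this RNA-Seq experiment, and all 8 are genes of the early mouse embryo or the oocyte. They were given by name and found in the count tables by mapping Ensembl identifiers to mouse symbols, which placed all 8. Some of them were selected on their values in these samples, since Eif4e1b and Pramel6 were among the largest increases of KO over WT at day 3. The day 3 difference between KO and WT is therefore described for these genes and not tested. The experiment measured polyadenylated RNA in 12 samples, in 4 groups of 3 replicates. All came from a mouse ESC line with an EGFP reporter in Eomes, labelled with the strain background C57BL/6 and grown on mouse embryonic fibroblast feeders. WT cells carried the reporter alone, and Meteor KO cells carried in addition a CRISPR-Cas9 nickase deletion of Meteor, a transcribed enhancer near Eomes. Deleted cells were picked and expanded as clones, and the study examined an additional clone by qRT-PCR and flow cytometry. The sample titles name no clone, so the deletion cannot be told apart from other differences between a KO clone and WT. Day 0 samples were undifferentiated ESCs in medium with serum and LIF (the cytokine that holds mouse ESCs in self-renewal), and day 3 samples were embryoid bodies formed from them in hanging drops, the start of a cardiac differentiation. The labels do not say that replicates were separate cultures, so p-values measure only the spread between these samples, which may be technical.

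The genes come from 4 small groups. Zscan4 genes code for zinc finger proteins with a SCAN domain. They are switched on when the mouse embryo first transcribes its own genome, at the 2-cell stage, and in ESC cultures they appear in short bursts in a small fraction of the cells, where they are known for a role in telomere maintenance. Tcstv genes are short genes of the same stage that are on in the same rare cells. Pramel6 and Pramel7 belong to the leucine-rich repeat family of PRAME and are known from the inner cell mass of the blastocyst and from naive ESCs, where Pramel7 works with a cullin ligase against UHRF1, a protein needed for DNA methylation. Eif4e1b is a cap-binding protein related to the translation factor eIF4E and is known from oocytes and early embryos.

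Near-identical copies decide how many reads these genes can keep, because a read with more than 1 equally good place in the genome was left out of the counts. Zscan4c (ENSMUSG00000054272, GRCm38 chr7:11005745-11010547, + strand), Zscan4d (ENSMUSG00000090714, chr7:11161374-11166159, - strand) and Zscan4f (ENSMUSG00000070828, chr7:11397915-11402318, + strand) are protein-coding genes of 1 cluster. Their coding sequences of 1521 bases in GENCODE M21 were identical at 1515 positions between Zscan4c and Zscan4f (99.6%) and at 1486 positions between Zscan4c and Zscan4d (97.7%). The reads were 100 bases long, so the first 100 coding bases show what a read can tell apart. They are given below from the GENCODE M21 transcripts, with capitals at the 3 positions where Zscan4d differs.
Zscan4c (chr7:11006556-11006655, + strand): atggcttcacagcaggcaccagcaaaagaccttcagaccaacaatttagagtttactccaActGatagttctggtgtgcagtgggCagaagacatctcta
Zscan4f (chr7:11398749-11398848, + strand): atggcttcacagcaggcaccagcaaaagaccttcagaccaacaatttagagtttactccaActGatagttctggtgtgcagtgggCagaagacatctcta
Zscan4d (chr7:11165249-11165348, - strand): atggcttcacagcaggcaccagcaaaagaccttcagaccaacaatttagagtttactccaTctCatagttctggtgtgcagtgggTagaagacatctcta

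Counted from the A of the start codon, the differences of Zscan4d from Zscan4c in this stretch were A61T, G64C and C86T, while Zscan4c and Zscan4f were the same at all 100 bases. A read of this stretch from Zscan4c or Zscan4f therefore has at least 2 equal places and is not counted. A read from Zscan4d has 3 bases that set it apart from Zscan4c and Zscan4f, and further copies were not compared over this stretch. Over the whole of Zscan4c and Zscan4f, only 6 coding positions differed (A294T, C639G, C1047A, A1053T, C1091T and C1320A).

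The Tcstv pair showed the same at its start. Tcstv1 (ENSMUSG00000096284, chr13:119893388-119894785, - strand, 1 exon) and Tcstv3 (ENSMUSG00000095821, chr13:120316878-120318178, + strand, 2 exon blocks) are protein-coding and had 483 coding bases in common (93.6% of the aligned length). Their first 100 coding bases are shown because they were identical, and no base is in capitals.
Tcstv1 (chr13:119893995-119894094, - strand): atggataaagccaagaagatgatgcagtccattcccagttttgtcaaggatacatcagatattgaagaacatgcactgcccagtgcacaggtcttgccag
Tcstv3 (chr13:120317567-120317666, + strand): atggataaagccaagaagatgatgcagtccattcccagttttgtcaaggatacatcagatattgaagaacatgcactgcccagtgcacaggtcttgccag

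Pramel6 (ENSMUSG00000025838, chr2:87506565-87510872, + strand) and Pramel7 (ENSMUSG00000025839, chr2:87489087-87497093, - strand) lie next to each other. Their coding sequences were identical at only 57.4% of the aligned length, with gaps counted in that length. Eif4e1b (ENSMUSG00000074895, chr13:54783998-54788459, + strand) has 6 exon blocks. All 8 genes are annotated as protein-coding, and no exon of theirs overlaps an exon of another annotated gene.

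Transcripts of each gene were cut into all words of 100 bases, and the words that also occur in transcripts of another gene were counted. Pramel6, Pramel7 and Eif4e1b shared 0 words. Zscan4d shared 29.6% of its 2173 words with 8 other genes. Zscan4c shared 72.8% of 2177 words and Zscan4f 80.6% of 1921 words, each with 9 other genes, and 1204 of these words were common to both of them. Zscan4-ps2 alone held 1296 of the words of Zscan4f, and Zscan4-ps2 and Zscan4a had no entry in the count tables under their GENCODE M21 identifiers. For Tcstv1 the share was 3.58% and for Tcstv3 it was 7.79%. Reads trimmed to 75 bases would raise these shares to 83.4% for Zscan4f and 14.3% for Tcstv3. The shares compare transcripts only, since no genome sequence was used here, so further copies in the genome would add to them. Counts of Zscan4c and Zscan4f therefore rest on 27.2% and 19.4% of their words, and their levels are uncertain in a way that those of Pramel6, Pramel7 and Eif4e1b are not.

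**Figure D1:**
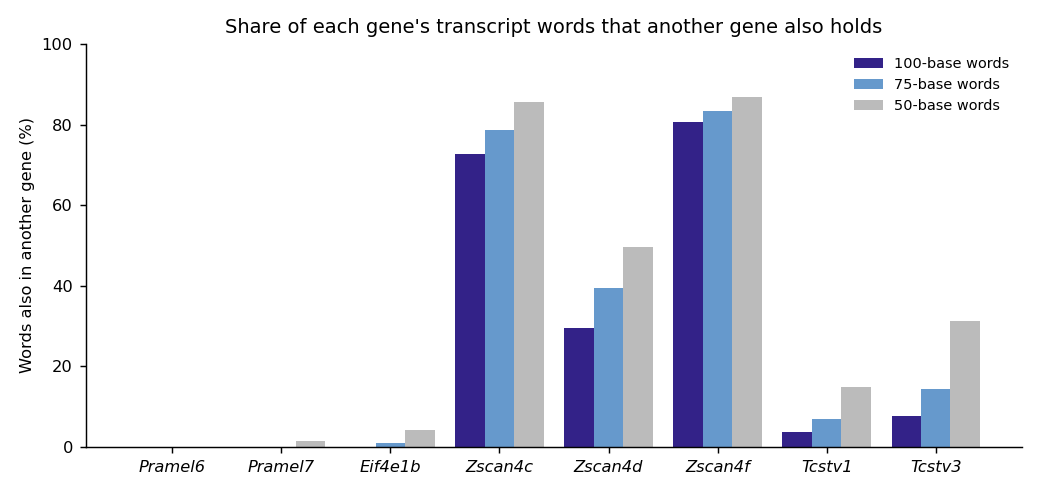
Share of the words of each gene's transcripts that occur also in transcripts of another gene (y axis, percent), for words of 100, 75 and 50 bases (bar colors). At 100 bases Zscan4f reached 80.6% and Zscan4c 72.8%, while Pramel6, Pramel7 and Eif4e1b were at 0.

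The promoters of the Zscan4 genes were as alike as their coding parts. RefSeq windows of 250 bases before to 50 after the start site (GRCm38.p6) were at hand for Pramel6, Pramel7, Zscan4c, Zscan4d and Zscan4f. With gaps left out, Zscan4c and Zscan4f were identical at 275 of 277 aligned bases and Zscan4c and Zscan4d at 281 of 289. Pramel6 and Pramel7 were identical at 157 of 252 (62.3%). Pairs of a Pramel and a Zscan4 window gave 55.8% to 64.8%, so the Pramel windows were no more alike than such pairs. A stretch of 70 bases upstream of the start site is shown for the 3 Zscan4 genes because they move together below. Capitals mark the letters TATAAA and the 2 positions at which Zscan4d differs.
Zscan4c (chr7:11005646-11005715, + strand): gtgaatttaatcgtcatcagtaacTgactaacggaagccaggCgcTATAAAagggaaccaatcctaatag
Zscan4f (chr7:11397839-11397908, + strand): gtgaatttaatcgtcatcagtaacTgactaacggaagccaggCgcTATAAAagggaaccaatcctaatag
Zscan4d (chr7:11166189-11166258, - strand): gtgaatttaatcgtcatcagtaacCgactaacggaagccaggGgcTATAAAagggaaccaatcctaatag

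The letters TATAAA were found in the windows of Zscan4c, Zscan4d and Zscan4f, at 54, 65 and 31 bases before the start site, and in 13.6% of 32851 promoter windows of the mouse. On both strands of the 5 windows, 0 held GATTNAATC (core letters of the motif of Dux, a 2-cell-stage activator), 0 held TTCCNGGAA (STAT factors) and 0 held TGCACAC (letters of a Zscan4 motif). These letters were in 0.268%, 1.148% and 4.396% of all windows. No motif of the 4 holds another, and a match or its absence in these windows is a description of the letters only.

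The 12 libraries held 17455927 to 23910943 reads on genes. CPM is the read count scaled to a common library size with TMM factors, and 1 CPM was close to 20 reads. The deletion was visible in the counts. A noncoding gene at the Meteor locus (ENSMUSG00000103968) had 52 to 107 reads in WT at day 0, 29 to 92 in WT at day 3 and 0 in all 6 KO samples. The 5 markers of undifferentiated ESCs (Pou5f1, Sox2, Nanog, Zfp42, Esrrb) were present, with a summed level of 2366 to 2738 CPM in WT and 3127 to 3362 CPM in KO at day 0. The 6 markers of the primitive streak and mesendoderm summed to 834 to 1715 CPM in WT at day 3 and 75 to 150 CPM in KO at day 3. Feeder cells were in the cultures, and 11 fibroblast markers summed to 88.9 to 275.5 CPM in WT and 132 to 374 CPM in KO at day 0, with all 11 detected in both groups. Of the 10 fibroblast markers tested, 0 were called between KO and WT at day 0 by edgeR, limma-voom or DESeq2. Their median log2 fold change was 0.54, higher in KO, beside -0.009 over all tested genes. In edgeR 4 had an unadjusted p below 0.05, and the part of feeder cells in the results below was not tested. Over all tested genes 9.56 percent were called higher and 10.9 percent lower in KO at day 0 (edgeR). In these bulk samples fewer cells of a type and less RNA per cell cannot be told apart.

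**Figure D2:**
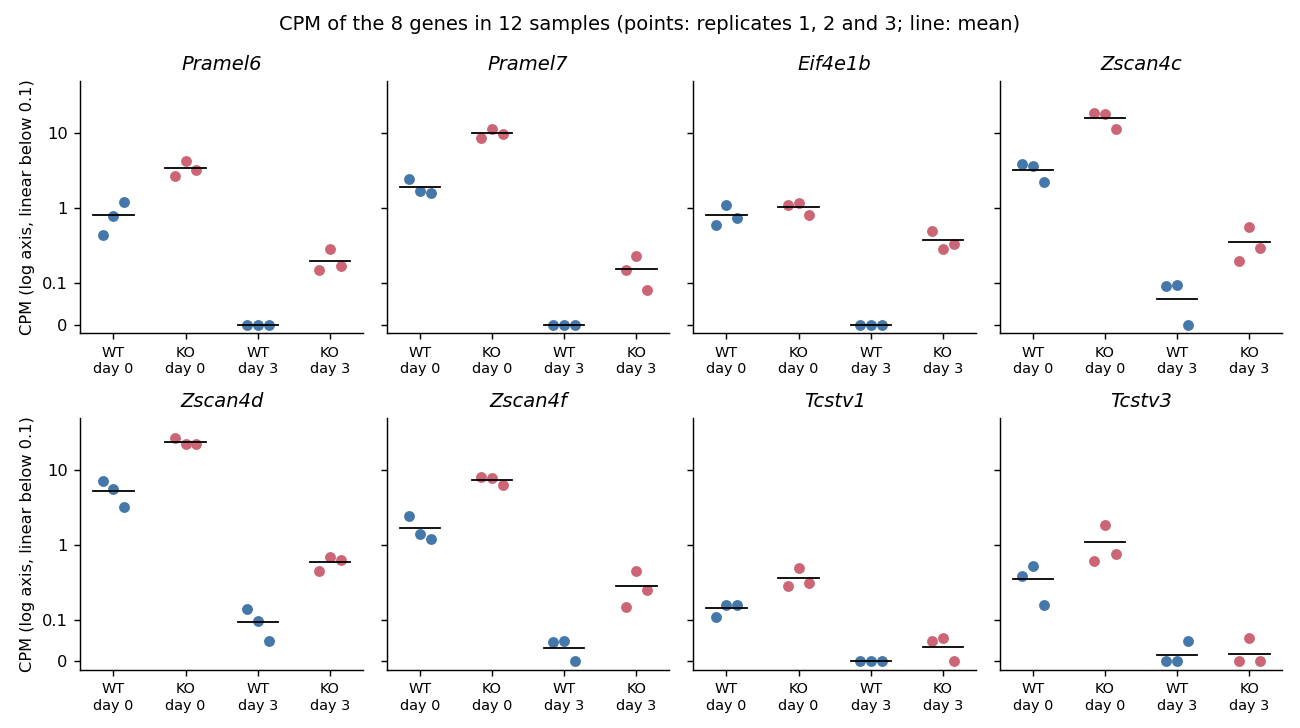
CPM of the 8 genes (y axis, logarithmic and linear below 0.1) in each sample of WT (blue) and Meteor KO (red) at day 0 and day 3, with points for replicates and a line for the mean of 3. At day 0 the KO and WT samples of Eif4e1b overlap. In the other genes the KO samples lie above the WT samples, for Tcstv1 and Tcstv3 on few reads. How often groups do not overlap over all genes was not counted. All 8 genes are lower at day 3 than at day 0 in both genotypes.

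KO and WT were first compared in undifferentiated ESCs, since the study asked how the deletion changes pluripotent cells before they differentiate. None of these samples enters the day 3 difference by which genes were picked. Still, the genes were chosen with earlier results of these data known, and day 3 cells were formed from day 0 cells. The p-values at day 0 are therefore not free of that choice. A gene was tested if any sample had over 1 CPM of it, which held for 7 of the 8 genes. Tcstv1 did not, and Tcstv3 passed only through KO replicate 2 at day 0, the group where it is high, so its values are a description. Of the 6 genes that also passed through WT samples of day 0, 5 were higher in KO and 0 lower by edgeR's quasi-likelihood test (Benjamini-Hochberg adjusted p below 0.05, n = 3 per group). Over all 15673 tested genes 9.56 percent were higher and 10.9 percent were lower, with a median log2 fold change of -0.009.

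Pramel7 had the largest log2 fold change of the 6. It had 45, 33 and 30 reads in WT and 157, 209 and 191 in KO at day 0. The lowest KO sample held over 3 times the reads of the highest WT sample, and the groups did not overlap. How often groups do not overlap over all genes was not counted for any comparison here, so separation of groups is a description only. WT samples averaged 1.92 ± 0.469 CPM and KO samples 10.02 ± 1.38 CPM (SD, n = 3). The log2 fold change was 2.39 (SE 0.28, adjusted p = 0.00122, edgeR).

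Pramel6, the neighbour of Pramel7, had fewer reads and moved alike. It had 8, 15 and 23 reads in WT and 48, 78 and 63 in KO. WT replicates spread almost 3-fold, and the ratio of KO to WT ranged from 2.65 to 6.16 over the replicate numbers, with no overlap between the groups. The mean rose from 0.812 ± 0.390 to 3.40 ± 0.820 CPM (SD, n = 3), and edgeR gave a log2 fold change of 2.09 (SE 0.35, adjusted p = 0.00515).

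The 3 Zscan4 genes rose by about the same factor. Zscan4d was the most counted, with 129, 106 and 61 reads in WT and 483, 405 and 432 in KO. Zscan4c had 71, 71 and 42 reads in WT and 338, 331 and 223 in KO. Zscan4f had 44, 27 and 23 reads in WT and 144, 141 and 123 in KO. In each of them all KO samples were above all WT samples, a separation whose share over all genes was not counted. In both genotypes replicate 1 was the highest or level with the highest of its group, and among the WT samples replicate 3 was the lowest in all 3 genes.

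Their log2 fold changes were 2.22 (SE 0.24, adjusted p = 0.000388) for Zscan4d, 2.31 (SE 0.28, adjusted p = 0.000589) for Zscan4c and 2.16 (SE 0.33, adjusted p = 0.00203) for Zscan4f by edgeR's quasi-likelihood test. The spread between these values was within their standard errors. Zscan4c gave the steadiest ratio of KO to WT, 4.89, 4.92 and 5.13 over the 3 replicate numbers, while Zscan4d ranged from 3.84 to 6.85. Summed over the 3 genes, WT had 13.3, 10.6 and 6.66 CPM and KO had 54.1, 48.3 and 39.7 CPM at day 0.

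Tcstv1 and Tcstv3, the other 2-cell-stage genes of the set, had few reads. Tcstv3 had 7, 10 and 3 reads in WT and 11, 34 and 15 in KO at day 0, and the lowest KO sample was only just above the highest WT sample. Its fitted log2 fold change was 1.56 (SE 0.52), given with no test for the reason above. Tcstv1 had 2, 3 and 3 reads in WT and 5, 9 and 6 in KO, which do not overlap. The ratio of pooled, scaled reads was 2.54 with a 95% interval of 1.07 to 6.66, which like all such intervals here covers counting error only.

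Eif4e1b was the gene of the 6 that was not called at day 0. It had 11, 21 and 14 reads in WT and 20, 21 and 16 in KO, and the groups overlapped. WT samples averaged 0.812 ± 0.256 CPM and KO samples 1.03 ± 0.187 CPM (SD, n = 3). The log2 fold change was 0.34 (SE 0.38, adjusted p = 0.59, edgeR), and the ratio of pooled reads was 1.26 with a 95% counting interval of 0.838 to 1.90. A difference of the size seen for Pramel6, whose pooled ratio was 4.17 with an interval of 3.01 to 5.89, lies outside that interval.

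**Figure D3:**
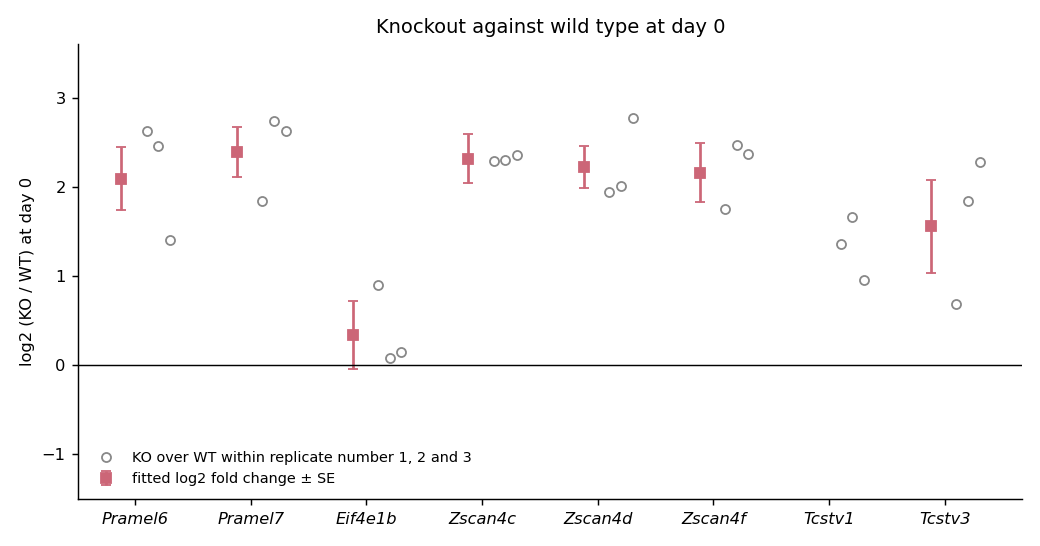
Log2 ratio of KO to WT at day 0 for the 8 genes. Squares are fitted log2 fold changes with SE and open circles the ratios within replicate numbers 1, 2 and 3. The 5 called genes have fitted values from 2.09 to 2.39, Eif4e1b is at 0.34, and Tcstv1 was not fitted. Tcstv3, at 1.56, passed the filter only through KO.

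Levels between genes can be compared only per length. Per kb of annotated exon, Zscan4d was the highest at day 0 (2.32 CPM per kb in WT and 10.5 in KO), followed in KO by Zscan4c (7.11), Pramel7 (4.70), Zscan4f (3.76), Pramel6 (1.63), Tcstv3 (1.39), Eif4e1b (0.458) and Tcstv1 (0.258). Pramel7 and Zscan4f were 0.900 ± 0.220 and 0.855 ± 0.325 CPM per kb of exon in WT (SD, n = 3), a gap within the spread, and so were Pramel6 at 0.390 ± 0.187 and Eif4e1b at 0.360 ± 0.113. When only words found in no other gene are taken as length, the order of the Zscan4 genes changed. In KO at day 0 Zscan4c was then at 27.4 ± 7.05 CPM per kb, Zscan4f at 19.8 ± 2.57 and Zscan4d at 15.6 ± 1.84, and in WT they were at 5.52 ± 1.54, 4.49 ± 1.71 and 3.44 ± 1.26, where the groups of values overlap within their SD. The order of the 3 Zscan4 genes thus depends on how lost reads are allowed for.

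The split of reads over the 3 Zscan4 genes was nearly the same in both genotypes. Zscan4d took 51.6% of their 574 reads in WT at day 0 (95% exact interval 47.4 to 55.7) and 50.4% of 2620 reads in KO (48.5 to 52.3). Zscan4c took 32.1% in WT (28.3 to 36.1) and 34.0% in KO (32.2 to 35.9). Zscan4f took 16.4% in WT (13.4 to 19.7) and 15.6% in KO (14.2 to 17.0). All 3 pairs of intervals overlap. At day 3 the split rested on 12 reads in WT and 74 in KO, with Zscan4d at 50% (21.1 to 78.9) and 48.6% (36.9 to 60.6).

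**Figure D4:**
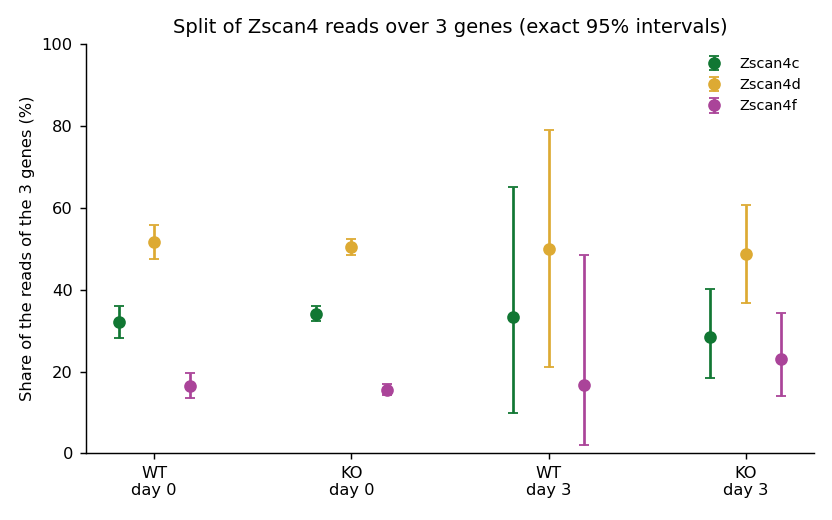
Share of the reads of Zscan4c, Zscan4d and Zscan4f that fell on each of them (y axis, percent) in the 4 groups, reads pooled over 3 samples, with exact 95% intervals for counting error. Zscan4d takes close to the same share in each group, from 48.6% to 51.6%, and the intervals are widest at day 3 in WT, where only 12 reads were counted.

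All 8 genes had fewer reads at day 3 than at day 0 in both genotypes. The 7 fitted genes passed the filter only through day 0 samples, where they are high, and these comparisons share the day 3 samples with the difference by which genes were picked, so the changes over time are a description with no test. Pramel6, Pramel7 and Eif4e1b had 0 reads in all 3 WT samples at day 3, so their differences over time are bounds. Against 3 reads over the group, Pramel7 was at least 40.4-fold lower and Pramel6 and Eif4e1b each at least 17.2-fold lower. Zscan4c kept 2, 2 and 0 reads, Zscan4d 3, 2 and 1, and Zscan4f 1, 1 and 0. Their levels at day 0 were 51.6, 55.3 and 52.7 times those at day 3, with lower 95% bounds of 19.8, 25.1 and 14.2. Tcstv3 kept 1 read in 1 of 3 samples and Tcstv1 kept 0, and the fitted log2 fold change of Tcstv3 moved from -4.01 to -6.08 without WT replicate 3 of day 3, the sample with that read, and to -3.03 without WT replicate 2 of day 3.

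In KO some reads of all 8 genes were left at day 3. Zscan4c had 4, 10 and 7 reads left, Zscan4d 9, 12 and 15, and Zscan4f 3, 8 and 6. Their levels at day 0 were 47.1, 40.7 and 26.6 times those at day 3. Among the genes with more than 1 read left, Pramel7 had the widest gap, 10.02 CPM at day 0 and 0.154 ± 0.0722 CPM at day 3, with a ratio of 68.6 (95% counting interval 35.9 to 151). For Pramel6 the ratio was 17.5 (9.77 to 34.4). Tcstv3 had 0, 1 and 0 reads left and Tcstv1 had 1, 1 and 0. The fitted log2 fold change of Tcstv3, -5.52, became -6.92 without KO replicate 2 of day 3, the sample that held its read.

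Eif4e1b had the narrowest gap in KO. It had 10, 5 and 8 reads at day 3 against 20, 21 and 16 at day 0, and every day 3 sample was below every day 0 sample. The level at day 3 was 0.372 ± 0.113 CPM (SD, n = 3), and the fitted log2 fold change was -1.43 (SE 0.41). The ratio of day 0 to day 3 was 2.75 with a 95% counting interval of 1.67 to 4.67. With the replicate numbers blocked within each day the fitted value was -0.94, and with 1 sample left out at a time it stayed below 0.

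At day 3 the difference between KO and WT rested on few reads. Eif4e1b had 0 reads in each WT sample and 10, 5 and 8 in KO. Pramel6 had 0 reads in WT and 3, 5 and 4 in KO, and Pramel7 had 0 in WT and 3, 4 and 2 in KO. Pooled over the group and set against 3 reads in WT, KO was at least 7.87-fold higher for Eif4e1b, 4.1-fold for Pramel6 and 3.08-fold for Pramel7. The fitted log2 fold changes of 5.92, 4.998 and 4.61 for these genes depend on how 0 reads are handled and are no bounds. With limma-voom they ranged down to 4.04, 3.18 and 2.81.

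The Zscan4 genes had reads in both genotypes at day 3 and were higher in KO in all 3 replicate numbers, without overlap. The share of all genes without overlap at day 3 was not counted. The pooled ratio of KO to WT was 5.39 (95% counting interval 1.82 to 21.6) for Zscan4c, 6.16 (2.57 to 17.9) for Zscan4d and 8.72 (2.07 to 77.8) for Zscan4f. Summed over the 3 genes the level was 0.28, 0.241 and 0.048 CPM in WT and 0.8, 1.71 and 1.17 CPM in KO. Set beside day 0, where the pooled ratios were 4.92, 4.53 and 4.41, the day 0 values lie within the wide day 3 intervals. Tcstv1 with 2 reads in KO against 0, and Tcstv3 with 1 read in each genotype, allow no ratio at day 3. Over all tested genes 14.3 percent were higher and 16.7 percent were lower in KO at day 3, and nothing is read from this beside values that chose the genes.

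Side by side, the pooled ratio of Eif4e1b was 1.26 at day 0 and at least 7.87 at day 3, that of Pramel6 was 4.17 and at least 4.1, and that of Pramel7 was 5.23 and at least 3.08. The difference between the days was not tested, since it holds the day 3 contrast that chose genes.

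Other genes of the same families were listed by their symbols, which gave 15 further genes, all with Prame or Zscan4 symbols and none named Tcstv. Of these 13 had reads and 6 were tested. Zscan4b and Pramef25 passed the filter only through KO at day 0. Of the other 4, which passed through WT at day 0 too, 2 were higher in KO and 0 lower (edgeR), with a median log2 fold change of 0.54. Over all tested genes 9.56 percent were higher and 10.9 percent were lower. Pramef8, the most counted, went from 55.4 ± 10.4 CPM to 79.4 ± 21.4 CPM with a log2 fold change of 0.51 (SE 0.13, adjusted p = 0.0205). Pramef12 (33.8 and 49.9 CPM, adjusted p = 0.0731) and Pramel1 (4.92 and 5.83 CPM, adjusted p = 0.677) did not pass. Zscan4e rose from 1.58 ± 0.349 to 8.42 ± 1.54 CPM with a log2 fold change of 2.42 (SE 0.26, adjusted p = 0.000419), close to that of its relatives above, with which it shares words of 100 bases. The log2 fold changes of Pramef8, Pramef12 and Pramel1 were 0.51, 0.56 and 0.24, beside 2.39 for Pramel7 and 2.09 for Pramel6, and the gap between them was not tested. Over time 3 of the 6, namely Pramef8, Pramef12 and Pramel1, could be compared without having passed through day 0 alone, and 3 of 3 were lower at day 3 in WT and in KO. Over all tested genes 25.5 percent were lower and 30.7 percent higher at day 3 in WT, and 27.2 percent were lower and 29.4 percent higher in KO. Between KO and WT at day 3, 2 of the 6, Pramef12 and Zscan4e, were higher (edgeR), beside 14.3 percent over all tested genes. Zscan4e had passed the filter through day 0 samples only. Its day 3 difference rested on 1 read in WT and 16 in KO, so nothing is read from its call. The 6 include Zscan4b and Pramef25, which passed the filter only through KO at day 0 and were not called.

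Of 25 listed genes known from the 2-cell stage and from 2-cell-like cells in ESC cultures, 24 were in the tables and 14 were tested. AF067061, Zfp352, Usp17ld and Tdpoz4 passed the filter only through KO at day 0 and are left out of the count at day 0. Of the other 10, which passed through WT at day 0 too, 7 were higher in KO at day 0 and 0 lower by edgeR's quasi-likelihood test, beside 9.56 percent higher over all tested genes. Their median log2 fold change was 1.89. Gm8300 went from 3.13 ± 0.946 to 14.4 ± 2.58 CPM (log2 fold change 2.22, SE 0.35, adjusted p = 0.00238), and Gm5662 from 2.50 ± 0.661 to 10.5 ± 1.55 CPM (2.09, SE 0.33, adjusted p = 0.00216). Usp17le, a deubiquitinating enzyme gene, went from 2.17 ± 0.667 to 6.63 ± 0.923 CPM (1.64, SE 0.29, adjusted p = 0.0037). The most counted gene of the list, AU015836, was at 17.2 ± 6.33 and 27.5 ± 8.42 CPM and did not pass (adjusted p = 0.364), nor did Obox6 (adjusted p = 0.435) and Usp17la (adjusted p = 0.0864). Summed over the 24 genes, WT samples held 28.1 to 41.8 CPM and KO samples 77.6 to 106 CPM at day 0. At day 3 the sums were 1.54 to 7.24 CPM in WT and 4.15 to 7.11 CPM in KO, which overlap. Between KO and WT at day 3, 7 of 14 were higher (edgeR), beside 14.3 percent over all tested genes. These 7 include AF067061 and Zfp352, which passed the filter only through KO, so nothing is read from this count. Of the 14, 13 had passed the filter through day 0 samples only, so no count over time is given. Several of these genes have near-identical copies as well, which was not counted for them.

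**Figure D5:**
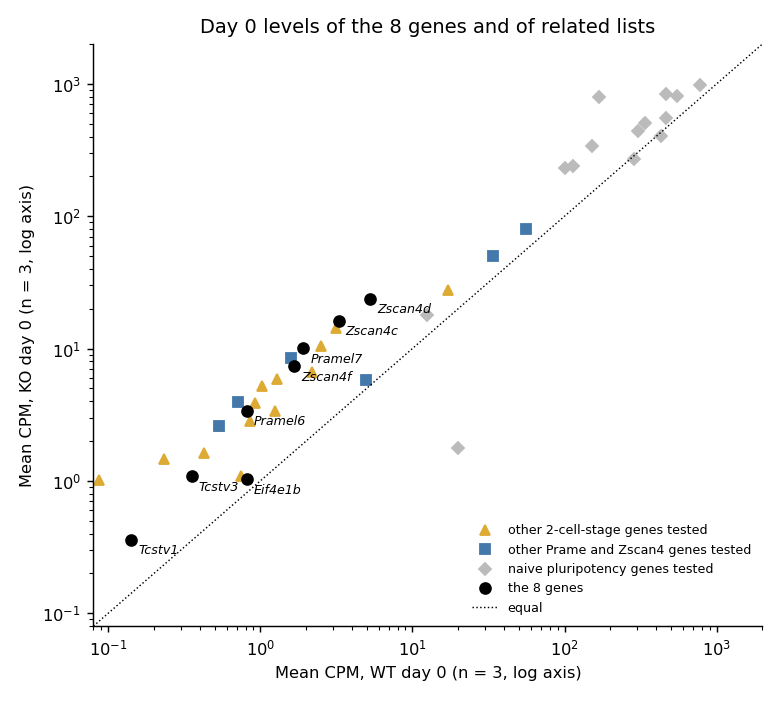
Mean CPM at day 0 in WT (x axis) and KO (y axis), both logarithmic, for the 8 genes (black), other tested genes of the Prame and Zscan4 families (blue), other tested 2-cell-stage genes (yellow) and naive pluripotency genes (grey). The dotted line marks equal levels, and Eif4e1b lies closest to it among the 8 genes.

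Of 19 genes known to act on the 2-cell-like state or on silencing in ESCs, all tested, 1 was higher and 3 were lower in KO at day 0 (edgeR), beside 9.56 percent higher and 10.9 percent lower over all tested genes, with a median log2 fold change of -0.015. The 4 with the most reads did not pass, namely Ncl (nucleolin, 5222 and 4352 CPM in WT and KO, adjusted p = 0.108), Trim28 (a corepressor, 2217 and 2589 CPM, adjusted p = 0.0896), Rif1 (986 and 1003 CPM, adjusted p = 0.909) and Lin28a (an RNA-binding protein, 573 and 410 CPM, adjusted p = 0.11). The 4 called genes are named after their values were seen. The histone methyltransferase gene Ehmt2 rose (126 and 202 CPM, log2 fold change 0.68, SE 0.07, adjusted p = 0.00038). Dppa3 (log2 fold change -3.52, adjusted p = 6.74e-05), Smchd1 (-0.38, adjusted p = 0.0119) and Chaf1b (-0.30, adjusted p = 0.0244) fell.

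Genes of LIF signalling, of the cullin ligase that Pramel7 works with and of DNA methylation formed a list of 15, all tested. At day 0, 2 were higher and 2 were lower in KO (edgeR), beside 9.56 percent higher and 10.9 percent lower over all tested genes. Their median log2 fold change was 0.12, and a difference of the list from these shares was not tested. Dnmt3b, a de novo DNA methyltransferase, fell from 575 ± 144 to 327 ± 48.4 CPM (log2 fold change -0.80, SE 0.15, adjusted p = 0.00587, edgeR). Dnmt3a, its relative, fell from 265 ± 71.0 to 112 ± 9.73 CPM (-1.23, SE 0.15, adjusted p = 0.000769). Uhrf1 (395 and 428 CPM, adjusted p = 0.402) and Dnmt1 (430 and 426 CPM, adjusted p = 0.917), the genes of maintenance methylation, did not pass. The 2 that rose, named after their values were seen, were Tfcp2l1, a target of LIF signalling (461 and 837 CPM, adjusted p = 0.00216), and Cul2, the cullin itself (161 and 212 CPM, adjusted p = 0.0044). At day 3, 4 of the 15 were higher and 4 lower in KO (edgeR), beside 14.3 and 16.7 percent over all tested genes. Directions had changed for some. Dnmt3a (252 and 765 CPM in WT and KO) and Dnmt3b (1424 and 2754 CPM) were higher in KO at day 3. Tfcp2l1 was lower (29.1 and 18.2 CPM).

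The most counted partners and relatives of Eif4e1b in cap binding were at far higher levels than Eif4e1b. Eif4e3 was near it, at 2.53 and 1.37 CPM in WT and KO at day 0. Eif4ebp3, not tested, was under it at 0.304 and 0.396 CPM. Of 12 tested genes, 1 was higher and 2 were lower in KO at day 0 (edgeR), with a median log2 fold change of 0.03. Over all tested genes 9.56 percent were higher and 10.9 percent were lower, and a difference of the list from these shares was not tested. Eif4g2 (2333 and 2762 CPM, adjusted p = 0.137) and Eif4g1 (1260 and 1200 CPM, adjusted p = 0.617) did not pass, Eif4a1 fell (825 and 649 CPM, adjusted p = 0.0104) and Eif4a2 rose (693 and 911 CPM, adjusted p = 0.00747). Of 16 oocyte genes 6 were tested, and 0 were higher and 1 lower in KO at day 0, beside the same shares over all tested genes. Ooep (63.4 and 86.7 CPM, adjusted p = 0.137), Tle6 (7.41 and 9.02 CPM, adjusted p = 0.615), Khdc3 (6.87 and 6.51 CPM, adjusted p = 0.836) and Zp3 (4.27 and 5.01 CPM, adjusted p = 0.718) did not pass. At day 3, where Eif4e1b was counted in KO and not in WT, 0 of these 6 oocyte genes were called between KO and WT by edgeR, limma-voom or DESeq2, and 3 had an unadjusted p below 0.05 in edgeR. Over all tested genes 14.3 percent were higher and 16.7 percent lower in KO at day 3 (edgeR).

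Of 14 naive pluripotency genes, all tested, 5 were higher and 1 was lower in KO at day 0 (edgeR), beside 9.56 percent higher and 10.9 percent lower over all tested genes, with a median log2 fold change of 0.54. Esrrb (549 and 813 CPM, log2 fold change 0.57, adjusted p = 0.0426) and Tfcp2l1 (0.84) rose. The other 3 that rose, named after their values were seen, were Klf5 (169 and 793 CPM, log2 fold change 2.23, adjusted p = 0.000103), Nr0b1 (1.21, adjusted p = 0.000791) and Fgf4 (1.08, adjusted p = 0.00739), and the value of Klf5 was within the range of the 5 called Pramel and Zscan4 genes. Pou5f1 (783 and 986 CPM, adjusted p = 0.24) and Nanog (338 and 506 CPM, adjusted p = 0.165) did not pass. The gene that fell was Dppa3, named after its values were seen, a maternal factor of the early embryo (20.0 and 1.78 CPM, log2 fold change -3.52, adjusted p = 6.74e-05). Its direction was opposite to that of the Zscan4 and Pramel genes. From day 0 to day 3, 13 of 14 were lower in WT and 14 of 14 in KO, beside 25.5 and 27.2 percent over all tested genes.

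Across the 12 samples the levels of the 8 genes, as log2 of CPM plus 0.5, followed each other. Pearson's r between the Zscan4 genes was 0.992 to 0.995, and between Pramel7 and the Zscan4 genes it was 0.989 to 0.993. Eif4e1b had the lowest values, 0.781 to 0.889. Over the 6 day 0 samples alone, r was 0.965 to 0.985 between Pramel7 and the Zscan4 genes and 0.453 to 0.615 between Eif4e1b and the Zscan4 genes. These values describe 12 and 6 samples that share groups, libraries and, for the Zscan4 genes, sequence.

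The genes most like the summed Zscan4 level over the 12 samples, by Pearson's r on the same scale, were Adap1 (0.997), Atg14 (0.996), Col5a3 (0.993), Gm8300 (0.993) and Fbxo2 (0.992). Adap1 was at 20.3 ± 5.92 CPM in WT and 59.1 ± 5.51 CPM in KO at day 0 and at 2.28 ± 0.415 and 4.28 ± 0.851 CPM at day 3 (SD, n = 3). Among the genes most like Pramel6 were Mme (0.982), Gm27167 (0.979) and Smpd4 (0.979). Mme was at 45.3 ± 5.96 CPM in WT and 146 ± 28.3 CPM in KO at day 0. Of the genes named here, Gm8300 is also in the list of 2-cell-stage genes.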

How the data were processed

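Polyadenylated RNA of 12 samples (WT and Meteor KO at day 0 and day 3, 3 replicates each) was sequenced as single reads of 100 bases. The authors used Cutadapt 1.3 for trimming, STAR 2.4.2a for alignment to GRCm38 and htseq-count 0.6.1 for counting on genes. The deposited values are these read counts, not normalized, and whether counting used strand is not given in the sources used here. Reads that align to several places (36.52% to 44.09% of the alignments the files account for), reads on no gene and ambiguous reads were left out of library sizes and tests.

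Counts were fitted with edgeR 4.0.16 (R 4.3.3, quasi-likelihood test, TMM), all 12 samples in 1 fit, with a term for each of the 4 groups and an additive block of replicate numbers, on genes above 1 CPM in at least 1 sample. Adjustment (Benjamini-Hochberg) ran over 15673 genes, and a gene was called at an adjusted p below 0.05. The study's own test also had a batch factor. WT and KO samples with the same number on a day shifted together against their groups (r = 0.335 to 0.691 over 12128 genes in 6 pairs). Between days r was -0.232 to 0.071. The block of the main fit was nevertheless shared by both days, and a block within each day was run as an alternative. CPM is scaled by TMM, and 95% intervals of pooled ratios and shares are exact binomial ones. Bounds use 3 reads over a group of 3 samples.

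The genes and lists were chosen with earlier results of these data known. Of each list the up to 4 genes with the highest mean CPM were named, and others are said to be named after their values were seen. Transcripts of GENCODE M21 were cut into words with Python 3.11.15, coding sequences were aligned with Biopython 1.88, and promoters are those of RefSeq. Alternatives were limma-voom (limma 3.58.1), DESeq2 1.42.0, RLE normalization, other blocks and filters, only the 6 samples of a comparison, and each sample left out in turn. Only the edgeR fit of KO against WT at day 0 was tried on simulated counts. Word counts, bounds, pooled ratios, shares and the alternatives were not. Protein sequences were not used here. Some genes alike in profile to Pramel6 are not reported here.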

Additional observations from a re-analysis of the deposited data

How the results depend on the processing

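The numbers of the 7 tested genes called at day 0 and over time stayed within 1.5 times of those reported under every alternative run. At day 0, 5 were called without the replicate block, 6 with the replicate numbers blocked within each day, and leaving out 1 sample at a time gave 5 to 6. From day 0 to day 3 the counts lay between 7 and 8 in WT and between 6 and 8 in KO, the block within each day changing only the side of the threshold of Tcstv3 at day 0 (adjusted p = 0.0388) and Eif4e1b over time in KO (0.228), for which no test is given above. Counts of 8 came with no filter on low counts, when Tcstv1 was tested too. The counts over time carry no support, since these genes passed the filter through day 0 only. Over 19 alternatives the log2 fold change at day 0 ranged from 1.88 to 2.54 for Pramel6, 2.19 to 2.66 for Pramel7, 2.22 to 2.41 for Zscan4c, 1.97 to 2.43 for Zscan4d and 1.93 to 2.50 for Zscan4f, called in 19 of 19, with adjusted p up to 0.0354 for Pramel6. It was 0.04 to 0.61 for Eif4e1b, called in 0 of 19, and Tcstv3, which passed the filter only through KO, was past the threshold in 4 of 19. At day 3 the fitted difference of Tcstv3 went from -1.37 to 2.13 on 1 read in each genotype. The median share of words lost to copies over the 8 genes was 5.68% for words of 100 bases, 10.6% for 75 and 23.2% for 50, since shorter words match more often. Asking for 10 or more counts in all 12 samples kept none of the 8 genes and gives no value. With 0 to 36 reads per group at day 3, depth limits each day 3 value.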

Other observations

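The less counted relatives of the 8 genes are named here after their values were seen. Zscan4b and Pramef25 passed the filter only through KO at day 0, where they are high, so no test is given for them. Zscan4b was at 0.712 ± 0.313 CPM in WT and 3.95 ± 1.04 CPM in KO at day 0 (SD, n = 3), and it had 0 reads in WT and 4 in KO at day 3. Pramef25 was at 0.537 ± 0.389 and 2.62 ± 0.403 CPM at day 0, with 2 reads in WT and 9 in KO at day 3. Pramef6 was under 1 CPM in every sample and was not tested, and it had 3 reads in WT and 41 in KO at day 0. Duxf3, the annotated Dux gene of the list and an activator of 2-cell-stage genes, was also under 1 CPM, with 3 reads in WT and 12 in KO at day 0. Nlrp14, the oocyte gene that differed at day 0, went the other way, from 3.83 ± 1.55 CPM in WT to 0.868 ± 0.272 CPM in KO (log2 fold change -2.10, SE 0.36, adjusted p = 0.00324, edgeR).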
